A study of Homo sapiens with 18 samples.

Results

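The genes described here encode the RB pocket proteins, the MuvB core and the transcription factors that act with it, in human melanoma cells under CDK4/6 or PRMT5 inhibition. They were taken by name and number 10: the pocket protein genes RB1, RBL1 (p107) and RBL2 (p130), the MuvB genes LIN9, LIN37, LIN52, LIN54 and RBBP4, and the partner transcription factor genes MYBL2 (B-MYB) and FOXM1. Of these, 9 have a row among the 20705 genes of the count table. LIN37 has no row and was not analysed here. Poly-A RNA was sequenced from CHL1 and A375, established melanoma cell lines, in 9 groups of 2 libraries. Both lines were treated with DMSO (control), with 1 µM palbociclib (CDK4/6i), which blocks the kinases CDK4 and CDK6, or with 500 nM GSK3326595 (PRMT5i), which blocks the arginine methyltransferase PRMT5. CHL1, which was grown in DMEM, has a control, CDK4/6i and PRMT5i at 72 hours and CDK4/6i at 6 days. Its 6-day cells were compared with the 72-hour control. A375, which was grown in RPMI, has the same groups and its own control at 6 days. Each line is a single melanoma culture model. In the study's description CHL1 has wild-type BRAF and mutant p53, and A375 has mutant BRAF and wild-type p53. The study's methods describe 2 replicates grown for each condition. Whether these came from independent experiments is not given in the sources used here, so the p-values measure the spread between these libraries.

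Pocket proteins bind E2F transcription factors and hold their target genes silent until cyclin-dependent kinases phosphorylate them. CDK4 and CDK6 with D-type cyclins start this phosphorylation, and CDK2 continues it. RB1 mainly restrains activator E2Fs, whereas RBL1 and RBL2 join E2F4 or E2F5 and the MuvB core in the DREAM complex, which represses cell cycle genes in quiescent cells. When cells enter the cycle, MuvB leaves the pocket proteins and binds B-MYB and later FOXM1, and these complexes activate genes of G2 and mitosis. LIN54 is the DNA-binding subunit of MuvB and recognises the CHR element (cell cycle genes homology region), LIN52 bridges MuvB to a pocket protein or to B-MYB, LIN9 and LIN37 are scaffold subunits, and RBBP4 is a histone chaperone shared with other chromatin complexes. RBL1, MYBL2 and FOXM1 are themselves genes whose transcripts increase in dividing cells, while RBL2 is known as the pocket protein of resting cells.

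The sequences upstream of the genes are shown because E2F and CHR elements are the DNA letters through which these proteins act. Promoter windows from RefSeq (build GRCh38.p14) matched 9 of the 10 genes, and the window of RB1 lies at an internal start. FOXM1 has no window. The 250 bases before each annotated start were searched on both strands for the E2F letters TTTGGCGC, TTTCGCGC and TCCCGCC and for the CHR letters TTTGAA and TTCGAA, a set of letters chosen after the promoters had been seen. An E2F match was found for 7 genes and a CHR match for 3 (LIN9, LIN37 and LIN54). By window these were 9 and 4 of 15, where some windows of a gene overlap and share a match. Among 35116 promoter windows of the same length, 14.28% hold any of the E2F letters and 14.34% any of the CHR letters. The longer TTTGGCGC and TTTCGCGC stand in 0.55% and 0.44% of windows, and TTCGAA in 1.19%. The windows of RBL1 (chr20:37095998-37096247, minus strand), RBL2 (chr16:53434221-53434470, plus strand), MYBL2 (chr20:43666864-43667113, plus strand) and LIN9 (chr1:226309165-226309414, minus strand) are printed below 5′ to 3′, with the matches in capitals.
RBL1: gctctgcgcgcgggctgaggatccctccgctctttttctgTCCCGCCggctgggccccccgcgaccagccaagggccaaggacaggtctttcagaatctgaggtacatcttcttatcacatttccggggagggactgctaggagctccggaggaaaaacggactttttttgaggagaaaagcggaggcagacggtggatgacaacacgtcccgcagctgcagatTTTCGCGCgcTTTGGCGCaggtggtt
RBL2: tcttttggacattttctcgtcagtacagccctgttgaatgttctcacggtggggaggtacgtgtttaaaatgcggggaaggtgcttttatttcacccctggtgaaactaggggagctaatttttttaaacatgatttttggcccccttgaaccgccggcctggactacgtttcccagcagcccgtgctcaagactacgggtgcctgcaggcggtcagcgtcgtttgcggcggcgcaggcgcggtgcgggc
MYBL2: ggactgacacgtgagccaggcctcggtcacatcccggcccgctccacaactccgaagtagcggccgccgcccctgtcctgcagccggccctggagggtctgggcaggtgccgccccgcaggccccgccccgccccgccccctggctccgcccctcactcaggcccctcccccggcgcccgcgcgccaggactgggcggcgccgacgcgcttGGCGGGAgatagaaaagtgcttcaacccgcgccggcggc
LIN9: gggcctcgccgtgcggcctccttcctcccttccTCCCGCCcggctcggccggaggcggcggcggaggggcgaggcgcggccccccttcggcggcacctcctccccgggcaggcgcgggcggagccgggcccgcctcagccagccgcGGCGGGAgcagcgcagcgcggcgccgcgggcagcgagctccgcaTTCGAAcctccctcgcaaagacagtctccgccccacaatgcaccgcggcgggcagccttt
RBL1 holds both long E2F letters, TTTCGCGC at 26 bases and TTTGGCGC at 16 bases before the start, without overlap between them, and TCCCGCC at 210 bases. The RBL2 window shown, and its other annotated window, hold none of the letters. MYBL2 holds the reverse complement of TCCCGCC at 39 bases, and LIN9, in 1 of its 3 windows, holds this letter string on both strands and TTCGAA at 60 bases before the start. A match describes the letters of a window and does not show that a factor binds there.

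The libraries held 16213475 to 37424081 counts. The lowest count of any of the 9 genes in a library was 220 (LIN52). By their names, all CHL1 libraries and the 6-day A375 libraries belong to one set, and the 72-hour A375 libraries to another. In the CHL1 PRMT5i and A375 6-day control libraries, counts leaned to genes of low GC content: the level of the GC-richest against the GC-poorest decile of genes, relative to the median library of the line, was -2.3 and -1.88 (log2) in CHL1 PRMT5i and -2.18 and -1.1 in the A375 control of 6 days, against -0.33 to 0.56 in the other libraries. The pocket protein and MuvB transcripts have a GC content of 37.1% (RB1) to 43.1% (RBL2), MYBL2 has 60.5% and FOXM1 55.7%. The calls on the members and the gene lists in comparisons with these 4 libraries are given with and without a correction for GC content, and for A375 at 6 days also with the 72-hour control. Melanocyte markers were partly present. MITF had group means of 63.9 to 185.2 CPM (counts scaled to library size), while the pigment genes PMEL and TYR stayed at or below 3.12 CPM in all groups, and DCT reached 33.6 to 125.5 CPM in CHL1 but at most 1.40 CPM in A375. In the 72-hour controls S100B was higher in CHL1 than in A375 (log2 difference 3.05), and TYRP1 was not called (0.90). The markers SOX10, MLANA and S100A1 have no row. In bulk RNA, fewer cells in cycle and less RNA per cell cannot be told apart.

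RB1 lies on chromosome 13 (48877880 to 49173572, GRCh37, plus strand), RBL1 on chromosome 20 (35624752 to 35724400, minus strand) and RBL2 on chromosome 16 (53467889 to 53525560, plus strand). Among the MuvB genes, LIN9 and RBBP4 lie on chromosome 1 (226418850 to 226497570 and 33116743 to 33151812), LIN52 on chromosome 14 (74551659 to 74668196) and LIN54 on chromosome 4 (83831126 to 83934079). MYBL2 lies on chromosome 20 (42295659 to 42345135) and FOXM1 on chromosome 12 (2966846 to 2986340). Exons of RBL2, RBBP4 and FOXM1 overlap those of AKTIP, SYNC and ITFG2 on the opposite strand by 609, 2160 and 782 bases. The authors ran HTSeq with its default settings, which count by strand, on libraries of a TruSeq RNA kit. Whether that kit kept the strand is not given in the sources used here, so reads in these stretches cannot be assigned with certainty. RBBP4 has 7 annotated pseudogenes, none of them with a row in the table, and its counts are uncertain to that extent.

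In untreated cells at 72 hours, MYBL2 had the highest level per transcript length of the 9 genes in both lines. Scaled over all 18 libraries, it was at 77.8 ± 9.76 CPM per kb in CHL1 and 52.2 ± 8.35 CPM per kb in A375 (mean ± SD, n = 2). In CHL1, RBBP4 (31.8 ± 0.146 CPM per kb) and RB1 (24.1 ± 3.08) followed, and RBL2 was lowest at 11.6 ± 1.06. The SD ranges of RB1 and RBL1 (21.5 ± 0.625) overlapped, as did those of each neighbouring pair in the order LIN54 (17.4 ± 1.71), LIN52 (15.7 ± 0.540), LIN9 (15.0 ± 0.416), FOXM1 (13.6 ± 1.71) and RBL2. In A375, RB1 (23.2 ± 1.66 CPM per kb), FOXM1 (19.6 ± 2.00), RBL2 (18.8 ± 0.250), RBBP4 (17.5 ± 1.24) and RBL1 (16.4 ± 0.00686) came after MYBL2, and the SD ranges of each neighbouring pair from RB1 to RBL1 overlapped. LIN9 (12.8 ± 0.892), LIN52 (8.68 ± 0.342) and LIN54 (7.78 ± 0.545) were lowest, with no overlap between neighbours. Between the lines, 6 of the 9 genes differed in the 72-hour controls, against 58.9% of all genes (29.3% higher and 29.6% lower in CHL1). LIN54 was higher in CHL1 by a log2 fold change of 1.16 ± 0.18 (SE, adjusted p = 1.8e-05), as were RBBP4 and LIN52 (both 0.86) and RBL1 (0.39, adjusted p = 0.0444), while RBL2 (-0.69, adjusted p = 0.00884) and FOXM1 (-0.53, adjusted p = 0.0386) were lower. With a correction for GC content 5 of 9 were called, against 69.3% of 13655 genes, where RBL1 (0.11) and FOXM1 (-0.30) no longer passed and MYBL2 (0.81) was higher in CHL1. The 72-hour A375 controls belong to another library set than the CHL1 controls, and the lines were grown in different media. Line, set and medium cannot be told apart in this comparison.

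**Figure D1:**
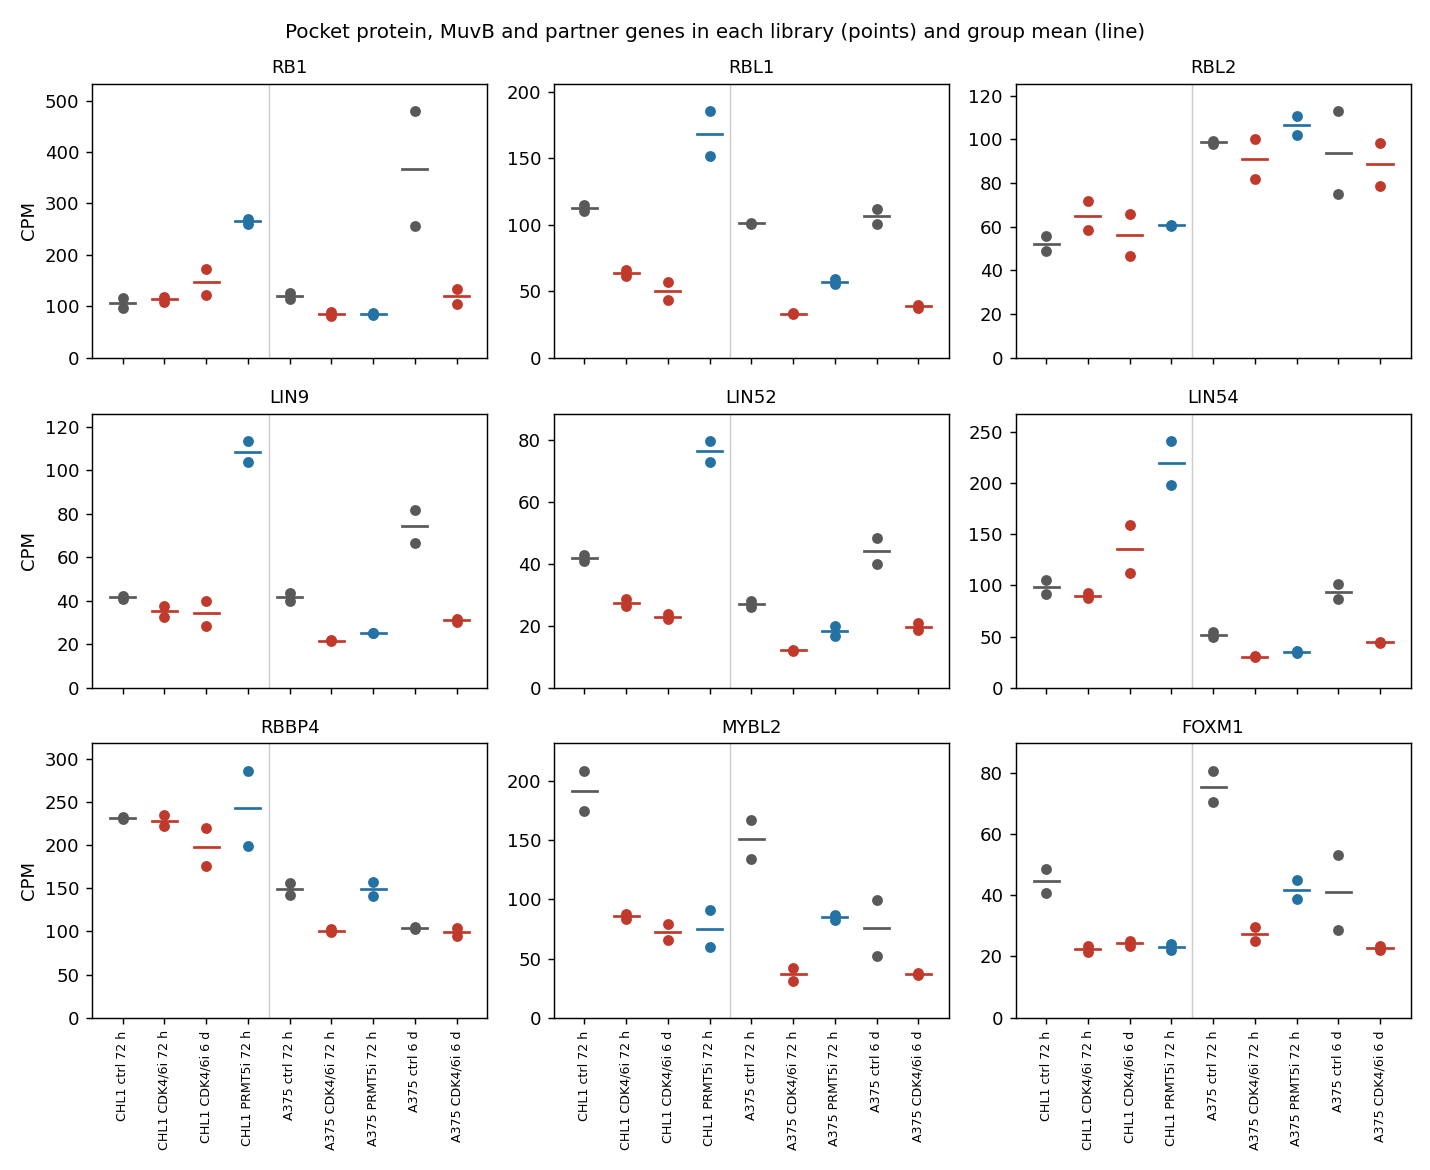
Level of each of the 9 genes in CPM (y axis, linear from 0, scaled within each line) in all 18 libraries, with groups along the x axis. Points are libraries, short lines group means, grey controls, red CDK4/6i and blue PRMT5i. RBL1, MYBL2 and FOXM1 lie below their controls in all CDK4/6i libraries, and RB1 has a spread of 255.8 to 479.5 CPM in the A375 control of 6 days.

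In CHL1, CDK4/6i at 72 hours lowered the transcripts of 1 pocket protein, 1 MuvB subunit and both partner transcription factors. RBL1, LIN52, MYBL2 and FOXM1 fell, which is 4 of the 9 genes with 0 higher, against 4.98% of all genes called (2.27% higher and 2.72% lower). MYBL2 was at 208.8 and 175.2 CPM in the 2 control libraries and at 87.9 and 83.7 CPM under CDK4/6i. FOXM1 was at 48.5 and 40.7 CPM in the controls and at 23.6 and 21.6 CPM under CDK4/6i. RBL1 was at 115.2 and 110.8 CPM and at 61.8 and 66.2 CPM. Treated and control libraries of these 3 genes did not overlap, as was the case for 58.1% of all genes. MYBL2 fell to 44.7% of control (log2 fold change -1.16 ± 0.20 SE, adjusted p = 0.0101), FOXM1 to 50.6% (-0.98 ± 0.17, adjusted p = 0.00774), RBL1 to 56.7% (-0.82 ± 0.17, adjusted p = 0.023) and LIN52, with 40.7 and 42.9 CPM in the controls against 26.3 and 28.5 CPM, to 65.6% (-0.61 ± 0.15, adjusted p = 0.0443). The other 5 genes did not pass. RB1 had a log2 fold change of 0.09 ± 0.18, RBL2 of 0.32 ± 0.19 (adjusted p = 0.394), LIN9 of -0.25 ± 0.18, LIN54 of -0.13 ± 0.19 and RBBP4 of -0.02 ± 0.19. The 4 calls were lost, with 0 of 9 genes called, when any of the 4 libraries was left out (control replicate 1, control replicate 2, CDK4/6i replicate 1 or CDK4/6i replicate 2), where 103 to 136 of all genes were called. At an unadjusted p under 0.05, edgeR still counted 4 of the 9 in each of these fits. The fold changes stayed between -1.28 and -1.03 for MYBL2, -1.10 and -0.85 for FOXM1, -0.87 and -0.78 for RBL1 and -0.67 and -0.56 for LIN52 (log2).

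At 6 days of CDK4/6i in CHL1, RBL1, LIN52, MYBL2 and FOXM1 were again the genes called, all lower, against 16.6% of all genes called (8.83% higher and 7.8% lower). The control was that of 72 hours, so the inhibitor and the longer culture cannot be told apart here. MYBL2 was at 79.6 and 66.0 CPM and had fallen to 37.9% of the control (log2 fold change -1.40 ± 0.21, adjusted p = 0.00154). RBL1, at 57.2 and 43.7 CPM, fell to 44.6% (-1.16 ± 0.18, adjusted p = 0.00179). LIN52, at 23.8 and 22.1 CPM, fell to 54.8% (-0.87 ± 0.16, adjusted p = 0.00402), and FOXM1, at 23.5 and 25.1 CPM, to 54.5% (-0.88 ± 0.17, adjusted p = 0.00526). All libraries of these 4 genes lay below both controls, and the groups did not overlap for 60.6% of all genes. Without control replicate 1, FOXM1 did not pass (-0.74, adjusted p = 0.0723), and without control replicate 2, LIN52 did not (-0.83, adjusted p = 0.0588). RB1 was at 173.0 and 122.1 CPM against 115.9 and 96.9 CPM in the controls (0.47 ± 0.18, adjusted p = 0.10), and LIN54 at 158.8 and 112.0 CPM against 105.0 and 91.6 CPM (0.46 ± 0.19, adjusted p = 0.117). With the GC correction, which calls 32.7% of 13655 genes here, both passed as higher (0.37, adjusted p = 0.041, and 0.44, adjusted p = 0.0329), as they also did without CDK4/6i replicate 2 (0.70 and 0.69). When CDK4/6i at 6 days was set directly against 72 hours, 0 of the 9 genes were called by edgeR and 0 by DESeq2, against 0.0145% of all genes (0.0145% higher and 0% lower). LIN54 was the 1 gene with an unadjusted p under 0.05 in edgeR, and the differences ranged from -0.34 (RBL1) to 0.59 (LIN54) on the log2 scale.

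In A375, CDK4/6i at 72 hours lowered all 4 measured MuvB genes and both partner transcription factors as well as RBL1. These are 7 of the 9 genes, all lower, against 13.3% of all genes called (6.22% higher and 7.11% lower). MYBL2 was at 134.2 and 167.3 CPM in the controls and at 30.8 and 42.2 CPM under CDK4/6i. RBL1 was at 101.5 and 100.7 CPM against 32.9 and 33.7 CPM. FOXM1 was at 70.4 and 80.7 CPM against 25.0 and 29.8 CPM. Treated libraries lay below both controls for each of these 3 genes, and the groups did not overlap for 66% of all genes. MYBL2 fell to 24.2% of control (log2 fold change -2.05 ± 0.26, adjusted p = 0.000104), RBL1 to 32.9% (-1.60 ± 0.17, adjusted p = 2.88e-05) and FOXM1 to 36.2% (-1.46 ± 0.24, adjusted p = 0.00097). Of the MuvB genes, LIN52 fell to 44.5% (-1.17), the scaffold gene LIN9 to 52.1% (-0.94), the DNA-binding subunit gene LIN54 to 58.7% (-0.77) and the histone chaperone gene RBBP4 to 67.5% (-0.57, adjusted p = 0.0346). RB1 was at 114.4 and 125.7 CPM against 88.7 and 82.1 CPM (-0.49 ± 0.24, adjusted p = 0.20) and RBL2 at 98.0 and 99.2 CPM against 99.9 and 82.0 CPM (-0.12 ± 0.21, adjusted p = 0.773). RBL1, LIN52, MYBL2 and FOXM1 passed in each of the 4 fits that left out a library. RBBP4 passed in 0 of them (control replicate 1 or 2, CDK4/6i replicate 1 or 2, adjusted p of 0.127 to 0.267 in edgeR), LIN54 only without control replicate 1, and LIN9 not without control replicate 2 or CDK4/6i replicate 2. In the latter pair of fits 4 genes were called. With the 6 A375 libraries of 72 hours alone, RB1 passed as well (adjusted p = 0.00238), which is 8 of 9 genes, against 31% of all genes. A fit with the replicate number as a block also called 8 of 9, against 42.3% of all genes.

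At 6 days of CDK4/6i in A375, 7 of the 9 genes were lower than the 6-day control, against 43.1% of all genes called (21.8% higher and 21.3% lower). RB1 now joined the genes that fell, and RBBP4 did not pass. RB1 was at 479.5 and 255.8 CPM in the 6-day controls and at 133.7 and 104.9 CPM under CDK4/6i, a fall to 32.4% (log2 fold change -1.62 ± 0.24, adjusted p = 0.000137). These groups did not overlap, as for 67.9% of all genes. The control libraries of 72 hours had 114.4 and 125.7 CPM, which lie within the range of the 6-day treated libraries. RBL1 fell to 36.4% (-1.46), LIN9 to 41.8% (-1.26), LIN52 to 44.7% (-1.16), LIN54 to 47.1% (-1.09), MYBL2 to 48.8% (-1.04) and FOXM1 to 55.7% (-0.84, adjusted p = 0.0101). Against the 72-hour control, which belongs to the other library set, 4 genes were called lower, where 31.2% of all genes were called. These were MYBL2 (-2.03), FOXM1 (-1.73), RBL1 (-1.39) and RBBP4 (-0.59, adjusted p = 0.0127). RB1 was then at -0.01 (adjusted p = 0.989), LIN54 at -0.22, LIN9 at -0.43 and LIN52 at -0.45 on the log2 scale, and none of them passed. After GC correction with the 6-day control, RB1, RBL1, LIN9, LIN52, LIN54, MYBL2 and FOXM1 were called lower, where 42.5% of 13655 genes were called, with RB1 at -0.73, LIN54 at -0.46 and MYBL2 at -1.56. Without control replicate 1, the library with the stronger GC trend, RB1 was at -1.10 and MYBL2 at -1.43. Without control replicate 2, RB1 was at -2.01, MYBL2 at -0.50 and FOXM1 at -0.34 (adjusted p = 0.0862), and FOXM1 did not pass without CDK4/6i replicate 2 either (-0.80, adjusted p = 0.0693). When the 72-hour effect was subtracted from the 6-day effect, 0 of the 9 genes passed in edgeR and 3 had an unadjusted p under 0.05, against 1.08% of all genes called (0.174% higher and 0.908% lower). DESeq2 called 1, RB1 (-1.24, adjusted p = 0.0202), against 5.53% of all genes.

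**Figure D2:**
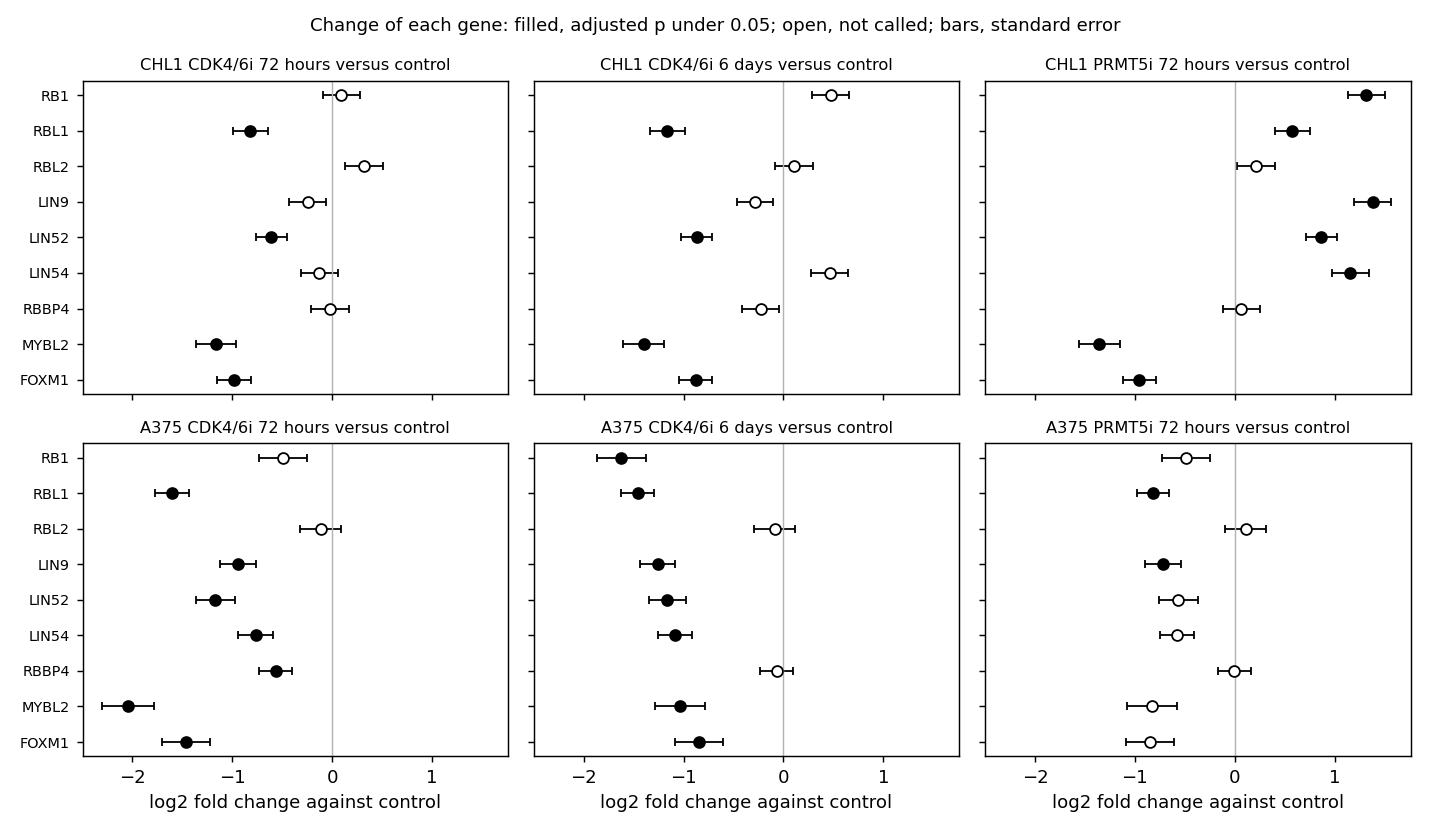
Log2 fold change against control (x axis) of the 9 genes (y axis) in the 6 comparisons of treated with control cells, without GC correction. Points are edgeR estimates with their standard error, filled where the adjusted p was under 0.05. RBL2 is open in all 6 panels, and RBL1, LIN52, MYBL2 and FOXM1 are filled to the left of 0 in the 4 CDK4/6i panels.

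RBL1 and RBL2 encode close relatives that occupy the same place in the DREAM complex, and the ratio of their transcripts was lower in all CDK4/6i groups than in the controls. The counts per kb of RBL1 divided by those of RBL2, a ratio within a library, were 2.02 and 1.70 in CHL1 control, 0.905 and 0.787 under CDK4/6i at 72 hours, and 0.740 and 0.802 at 6 days. In A375 the ratios were 0.884 and 0.867 in the 72-hour control and 0.281 and 0.351 under CDK4/6i. In the 6-day groups they were 0.849 and 1.14 against 0.345 and 0.409. Every CDK4/6i library was below every control library of its line. In the CDK4/6i comparisons with control, the groups did not overlap for 58.1% to 67.9% of all genes. That share was not computed for ratios of genes. Under PRMT5i the ratios were 2.61 and 2.14 in CHL1 and 0.459 and 0.461 in A375, above and below the controls, respectively. The CHL1 PRMT5i and A375 6-day control libraries carry the GC trend, and the ratios were not corrected for it. RBL1 has a GC content of 40.0% and RBL2 of 43.1%. In CHL1 PRMT5i against control, RBL1 changed sign with the GC correction and was not called. No test was run on the ratios, which contain the RBL1 values already given. RBL2 itself passed in 0 of the 6 comparisons with a control in edgeR, with an unadjusted p of 0.121 or more in each, and its group means spanned 52.2 to 65.1 CPM in CHL1 and 88.5 to 106.3 CPM in A375.

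**Figure D3:**
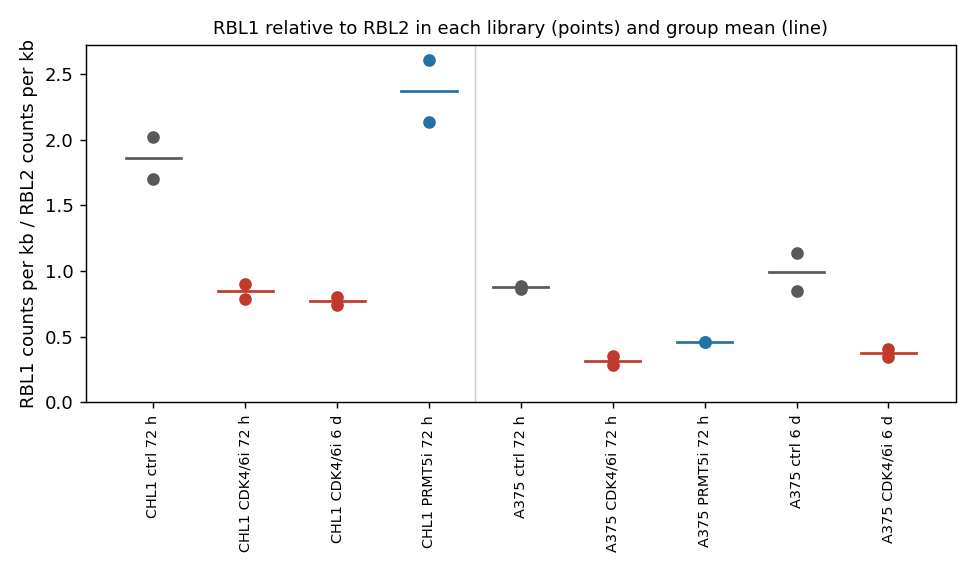
Counts per kb of RBL1 divided by counts per kb of RBL2 (y axis, linear from 0) in each of the 18 libraries by group (x axis). Points are libraries and short lines group means, without GC correction. The A375 CDK4/6i libraries sit between 0.281 and 0.409 and the CHL1 CDK4/6i libraries between 0.740 and 0.905, below the controls of their line.

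Under PRMT5i in CHL1, 5 genes of the set rose and both partner transcription factors fell, and most of these calls were lost with a correction for GC content. RB1, RBL1, LIN9, LIN52 and LIN54 were called higher and MYBL2 and FOXM1 lower, which is 7 of 9 genes, against 54% of all genes called (26.4% higher and 27.6% lower). LIN9 was at 103.7 and 113.6 CPM against 42.4 and 40.9 CPM in the controls (log2 fold change 1.38 ± 0.18, adjusted p = 0.000149). RB1 was at 260.7 and 270.1 CPM against 115.9 and 96.9 CPM (1.32 ± 0.19, adjusted p = 0.000189). MYBL2 was at 59.4 and 90.6 CPM against 208.8 and 175.2 CPM (-1.36 ± 0.21, adjusted p = 0.000267). Treated and control libraries of these genes did not overlap, as for 75.8% of all genes. LIN54 rose by 1.16, LIN52 by 0.87 and RBL1 by 0.58 (adjusted p = 0.0137) on the log2 scale, FOXM1 fell by 0.95, and RBL2 (0.22) and RBBP4 (0.07) did not pass. RBL1 did not pass without control replicate 1, control replicate 2 or PRMT5i replicate 1 (0.42 to 0.61, adjusted p of 0.0672 to 0.09). Among the 15190 genes that reached 1 CPM in 2 libraries, 10664 were called. After GC correction, 3 of the 9 genes were called, where 34.8% of 13655 genes were called. Without the correction, 7 of the 9 and 9516 of the same 13655 genes were called. LIN9 (0.71 ± 0.13, adjusted p = 0.00306) and LIN52 (0.36, adjusted p = 0.0297) stayed higher and RBBP4 was lower (-0.59, adjusted p = 0.0156). RB1 was then at 0.25, LIN54 at 0.27, RBL1 at -0.22, MYBL2 at -0.18 and FOXM1 at -0.07, and none of these 5 passed. The cause of the GC trend was not tested.

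**Figure D4:**
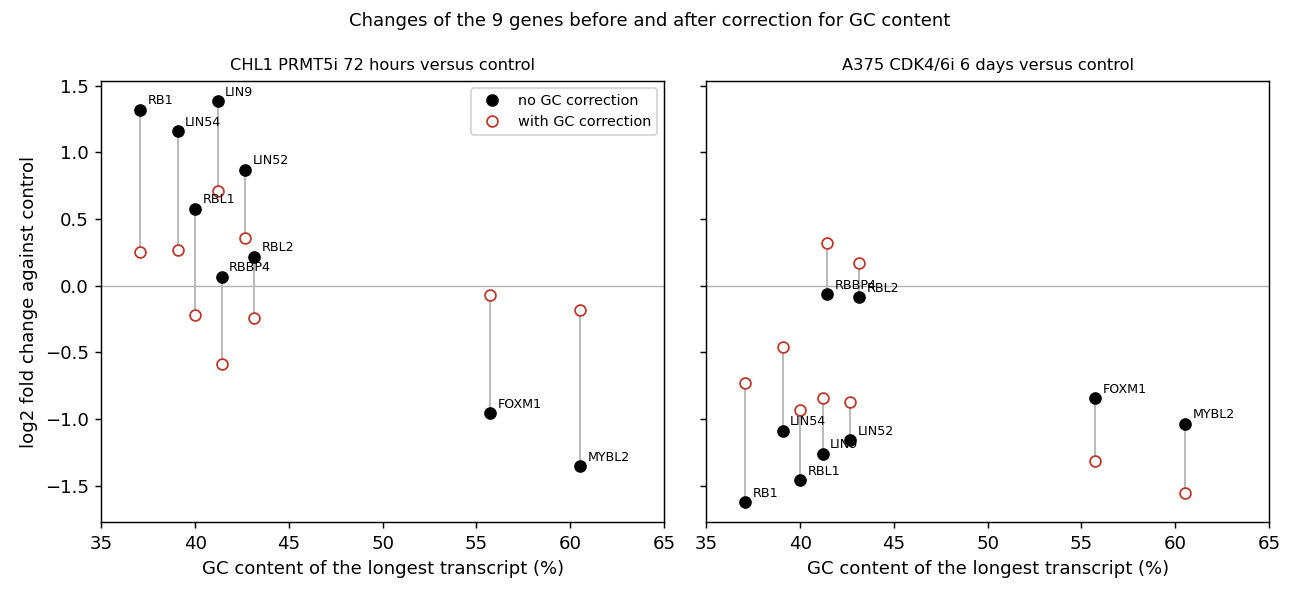
Log2 fold change against control (y axis) of the 9 genes by the GC content of their longest transcript (x axis, %) in 2 comparisons, without (black) and with (red, open) the GC correction, joined by a line for each gene. In CHL1 PRMT5i, MYBL2 moves from -1.36 to -0.18 and RB1 from 1.32 to 0.25, and in A375 CDK4/6i at 6 days MYBL2 moves from -1.04 to -1.56 and RB1 from -1.62 to -0.73.

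In A375, PRMT5i lowered RBL1 and LIN9, which is 2 of the 9 genes, against 2.61% of all genes called (0.874% higher and 1.74% lower). RBL1 was at 59.4 and 55.2 CPM against 101.5 and 100.7 CPM in the controls (log2 fold change -0.82 ± 0.16, adjusted p = 0.0163). LIN9 was at 25.3 and 25.4 CPM against 39.8 and 43.6 CPM (-0.72 ± 0.18, adjusted p = 0.0439). In neither gene did the groups overlap, as for 53.3% of all genes. MYBL2, at 82.6 and 87.2 CPM against 134.2 and 167.3 CPM, had a log2 fold change of -0.83 ± 0.25 (adjusted p = 0.0961), and FOXM1, at 38.8 and 45.0 CPM against 70.4 and 80.7 CPM, one of -0.85 ± 0.24 (adjusted p = 0.0719). The values of LIN54 (-0.58), LIN52 (-0.57), RB1 (-0.49), RBL2 (0.11) and RBBP4 (0.00) did not pass either. The calls depended on the libraries fitted together. With the 6 A375 libraries of 72 hours alone, 7 of the 9 genes were called lower, where 15.8% of all genes were called, among them FOXM1 (adjusted p = 0.000772), MYBL2 (adjusted p = 0.00211) and RB1 (adjusted p = 0.00588), and RBL2 and RBBP4 were not called. GC correction gave 6 genes called lower, where 10.3% of 13655 genes were called. With the replicate number as a block, 7 of the 9 were called lower, where 29.5% of all genes were called. Leaving out control replicate 1, control replicate 2, PRMT5i replicate 1 or PRMT5i replicate 2 left 0 of the 9 genes and 20 to 67 of all genes called by edgeR, with RBL1 between -0.87 and -0.77 and LIN9 between -0.78 and -0.65. At an unadjusted p under 0.05, 5 to 6 of the 9 were counted in these fits.

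The inhibitors were also compared with each other at 72 hours. In A375, RBL1 (log2 difference 0.78 ± 0.17, adjusted p = 0.0127) and MYBL2 (1.22 ± 0.26, adjusted p = 0.0122) were higher under PRMT5i than under CDK4/6i, which is 2 of 9 genes, against 5.45% of all genes (2.37% higher and 3.09% lower). FOXM1 (0.68), LIN52 (0.56) and RBBP4 (0.50) were called higher as well after GC correction, which makes 5 of 9 genes, against 18.3% of 13655 genes. In CHL1, LIN9 (1.63), LIN52 (1.48), RBL1 (1.40), LIN54 (1.29) and RB1 (1.23) were higher under PRMT5i, which is 5 of 9 genes, against 57.8% of all genes (28.4% higher and 29.4% lower), and MYBL2 (-0.19) and FOXM1 (0.03) did not pass. After GC correction MYBL2 (1.12, adjusted p = 0.000135) and FOXM1 (0.98, adjusted p = 0.000297) were higher under PRMT5i, RBL1 (0.52), LIN9 (0.88) and LIN52 (0.88) stayed higher, RBL2 (-0.64) and RBBP4 (-0.65) were lower, and LIN54 (0.32) and RB1 (0.10) did not pass, where 47.7% of 13655 genes were called.

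Whether the lines responded differently was tested as the difference of their fold changes (CHL1 minus A375) in a fit of all 18 libraries. The lines were grown in different media, and the 72-hour A375 libraries belong to another library set than the CHL1 libraries. Line, medium and, at 72 hours, library set cannot be told apart in these differences. For CDK4/6i at 72 hours, 0 of the 9 genes passed in edgeR, where 5 had an unadjusted p under 0.05, and 0 in DESeq2, against 0.642% of all genes (0.241% higher and 0.401% lower). The differences were all above 0 and lay between 0.38 (RBL2) and 0.83 (MYBL2) on the log2 scale. The falls of LIN9, LIN54 and RBBP4, called in A375 and not in CHL1, were not shown to differ from the values in CHL1 (differences of 0.64, 0.58 and 0.49). RBL1 (0.69, adjusted p = 0.0349) and MYBL2 (0.93, adjusted p = 0.0357) passed after GC correction, against 3.8% of 13655 genes. At 6 days, RB1 (2.09), LIN54 (1.53) and LIN9 (0.96) differed, which is 3 of 9 genes, against 21.9% of all genes (12.4% higher and 9.51% lower), and they also differed with GC correction (1.10, 0.90 and 0.60), against 25.4% of 13655 genes. The control is 72 hours in CHL1 and 6 days in A375, so line and control time cannot be told apart in the 6-day differences. For PRMT5i, 5 of 9 genes differed (LIN9 by 2.07, RB1 by 1.78, LIN54 by 1.70, LIN52 by 1.40 and RBL1 by 1.36), against 40.9% of all genes (18.8% higher and 22.1% lower). These differences were 1.36, 0.61, 0.75, 0.87 and 0.52 with GC correction and still passed, and MYBL2 (0.72), FOXM1 (0.84) and RBBP4 (-0.65) were then called too, against 25.9% of 13655 genes.

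The A375 controls themselves differed between 6 days and 72 hours, with 7 of 9 genes called, against 47.8% of all genes (24% higher and 23.8% lower). RB1 (log2 difference 1.61), LIN54 (0.87), LIN9 (0.83) and LIN52 (0.71) were higher at 6 days, and MYBL2 (-0.996), FOXM1 (-0.88) and RBBP4 (-0.53) lower. With GC correction, where 42.5% of 13655 genes were called, RB1 (0.60) and LIN9 (0.28, adjusted p = 0.0493) stayed higher, RBBP4 (-1.04) stayed lower, RBL1 (-0.58) and RBL2 (-0.46, adjusted p = 0.0331) were lower, and LIN52, LIN54, MYBL2 and FOXM1 did not pass. Time and library set cannot be told apart in this comparison.

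E2F2 and MYB were the DNA-binding partners and paralogs with calls in most comparisons. Of 10 genes that encode E2F and DP partners and paralogs of the set, 1 fell in CHL1 under CDK4/6i at 72 hours and 3 fell by 6 days, with a median log2 fold change of -0.42 and -0.36. In A375, 5 fell at 72 hours (median -0.57), and at 6 days 5 fell and 1 rose (median -0.48). Of all genes, 4.98% and 16.6% were called in CHL1 and 13.3% and 43.1% in A375. E2F2, an activator E2F, fell in A375 at 72 hours (-2.24) and 6 days (-1.43) and in CHL1 at 6 days (-1.05), and had a value of -0.78 (adjusted p = 0.0622) in CHL1 at 72 hours. MYB, the founding member of the MYB family, fell in all 4 CDK4/6i comparisons, where 6-day CHL1 cells had the 72-hour control and 6-day A375 cells the 6-day control. Its log2 fold change was -0.85 and -0.86 in CHL1 and -2.43 in A375 at 6 days, while in A375 at 72 hours it had 14 and 20 counts in the controls and 2 and 1 under CDK4/6i, too few for a fold. E2F4, the main E2F of DREAM, was not called under CDK4/6i in CHL1 (0.03 and -0.21) or in A375 at 72 hours (0.12) and rose in A375 at 6 days (0.64, adjusted p = 0.0296). TFDP1, the main dimer partner, passed in 0 of the 6 comparisons with a control by edgeR, with an unadjusted p under 0.05 in 4 of them. GC correction gave 5 calls of 10 in A375 at 6 days, all lower, against 42.5% of 13655 genes. E2F2 was then at -1.95, MYB at -2.24 and E2F4 at 0.11 (adjusted p = 0.564). Against the 72-hour control 4 were called there, all lower, where 31.2% of all genes were called. E2F2 was at -2.28, while MYB (-0.30, adjusted p = 0.677) and E2F4 (-0.34, adjusted p = 0.27) were not called. Under PRMT5i in A375, E2F2 fell (-1.16), which is 1 of 10, against 2.61% of all genes called. At an unadjusted p under 0.05, edgeR counted 4 of the 10 lower, and the median was -0.42. GC correction called 3 of the 10 lower there, against 10.3% of 13655 genes. Under PRMT5i in CHL1, 3 rose and 3 fell (median 0.06), with E2F1 (-1.29), E2F2 (-1.24) and E2F4 (-1.26) lower and MYBL1 (1.22), E2F5 (0.69) and TFDP2 (0.49) higher. These 6 of 10 stand beside 54% of all genes called in that comparison. After GC correction 3 of 10 were called, against 34.8% of 13655 genes, with TFDP2 (0.46) higher and TFDP1 (-0.42) and RBBP7 (-0.69) lower, while E2F1 (-0.06), E2F2 (-0.25), E2F4 (-0.17), E2F5 (-0.28) and MYBL1 (0.16) were not called.

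Upstream of the pocket proteins, 13 genes for cyclins, kinases and inhibitors were measured, and CDK2, CDKN2A and CDKN2B have no row. Under CDK4/6i in CHL1, 1 rose and 3 fell at 72 hours, and 3 rose and 3 fell at 6 days. In A375, 2 rose and 4 fell at 72 hours, and 4 rose and 6 fell at 6 days. The share of all genes called was 4.98% and 16.6% in CHL1 and 13.3% and 43.1% in A375. CCND1, the D-type cyclin that activates CDK4 and CDK6, rose in all 4 comparisons, by 1.34 and 1.31 in CHL1 and by 0.90 and 0.94 in A375 on the log2 scale. CCNA2, the S and G2 cyclin, fell in all 4, by 1.29, 1.24, 1.92 and 2.22. DYRK1A, the kinase that phosphorylates LIN52 to assemble DREAM, fell in all 4 as well, by 0.63, 0.69, 0.58 and 0.94. In A375 at 6 days GC correction gave 3 of 12 higher and 6 lower, against 42.5% of 13655 genes. CCND1 was then at 0.64, CCNA2 at -1.88 and DYRK1A at -0.61. The 72-hour control gave 3 of 13 higher and 6 lower, where 31.2% of all genes were called. CCND1 was at 0.91 and CCNA2 at -2.29, while DYRK1A (-0.33, adjusted p = 0.181) was not called. CDKN1A (p21) rose in A375 at 72 hours (1.52) and 6 days (1.32) and under PRMT5i (1.94), while its values in CHL1 were 0.32 and 0.18 under CDK4/6i and did not pass, and it fell there under PRMT5i (-1.01). Under PRMT5i in A375 CCND2 rose from 0.05 and 0.16 CPM to 1.78 and 2.20 CPM, CCNA2 (-0.96) and CCNE2 (-0.99) fell, and in CHL1 5 rose and 5 fell, which is 10 of 13 beside 54% of all genes. After GC correction 4 of 12 were called in CHL1 PRMT5i, against 34.8% of 13655 genes. CCND1 (0.64), CDKN1B (0.62) and CDKN2C (0.78) were higher and CDK4 (-0.95) lower, while CDKN1A (-0.01) was not called. Of the 8 corepressor genes, 0 were called by edgeR under CDK4/6i at 72 hours in either line or under PRMT5i in A375, where 1 (CHL1), 2 (A375) and 0 had an unadjusted p under 0.05. The shares of all genes called in these comparisons were 4.98%, 13.3% and 2.61%. At 6 days SIN3A (-0.54) fell in CHL1, while in A375 HDAC1 (0.60) and SIN3B (0.78) rose and HDAC2 (-1.09) and SUV39H1 (-1.09) fell. These 4 of 8 in A375 stand beside 43.1% of all genes, and the 1 of 8 in CHL1 beside 16.6%. GC correction left HDAC1 (0.48) higher and SUV39H1 (-1.65) lower in A375 at 6 days, and against the 72-hour control the adjusted p of the 8 genes was 0.0661 to 0.576. In CHL1 PRMT5i 3 rose and 4 fell, which is 7 of 8 beside 54% of all genes. After GC correction 4 of the 8 were called there, against 34.8% of 13655 genes, with SUV39H1 (2.00) and SIN3B (0.32) higher and HDAC1 (-0.89) and SIN3A (-0.57) lower.

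Target genes fell under CDK4/6i in both lines. Of 23 measured G1/S targets of E2F, 11 fell in CHL1 at 72 hours (median log2 fold change -0.77) and 16 at 6 days (-0.81), and 23 fell in A375 at 72 hours (-1.33) and 14 at 6 days (-0.68), with 0 called higher in these edgeR fits, also at an unadjusted p under 0.05. Of 28 G2/M targets, 14 and 18 fell in CHL1 (both -0.70) and 27 and 26 in A375 (-1.24 and -1.36), again with 0 higher by edgeR at either threshold. The median over all genes was between 0.00 and 0.10 in these 4 comparisons. Of all genes, 2.72% and 7.8% were called lower in CHL1 and 7.11% and 21.3% in A375. TYMS, the thymidylate synthase, fell to 43.6% of control in CHL1 at 72 hours, and KIF20A, a mitotic kinesin, to 40.5%. GINS2, a subunit of the replicative helicase, fell to 40.0% in CHL1 at 6 days and to 27.5% in A375 at 72 hours, where NEK2, a centrosomal kinase, fell to 26.3%. CDK1, the mitotic kinase, fell to 16.4% and PCNA, the replication clamp, to 38.8% in A375 at 6 days. Under PRMT5i in A375, 3 of the G1/S targets and 9 of the G2/M targets fell (medians -0.61 and -0.66), against 1.74% of all genes lower. RRM2, a ribonucleotide reductase subunit, was at 31.7% and CDC25C, a mitotic phosphatase, at 44.3% of control. At an unadjusted p under 0.05, edgeR counted 18 of 23 and 25 of 28 lower there, with 0 higher. GC correction called 12 of 23 and 18 of 28 lower in A375 PRMT5i, against 10.3% of 13655 genes called. In CHL1 PRMT5i, 13 G1/S targets fell and 1 rose (median -0.60), whereas 13 G2/M targets rose and 6 fell (median 0.30), with TTK at 1.87 and CDC20 at -1.31. These 14 of 23 and 19 of 28 stand beside 54% of all genes. After GC correction the G1/S targets called in CHL1 PRMT5i were 5 of 23, all lower (median of the 23 -0.19), while 5 of 28 G2/M targets rose and 3 fell (median of the 28 -0.02), against 34.8% of 13655 genes, with TTK at 1.14 and CDC20 at -0.28 (adjusted p = 0.116). In A375 CDK4/6i at 6 days, GC correction gave 20 of 23 G1/S and 26 of 28 G2/M targets lower, and the 72-hour control 23 and 27. In either direction, 42.5% of 13655 genes and 31.2% of all genes were called in these fits. CDK1 was at -1.72 and PCNA at -1.31 with the correction, and at -1.67 and -1.27 against that control.

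**Figure D5:**
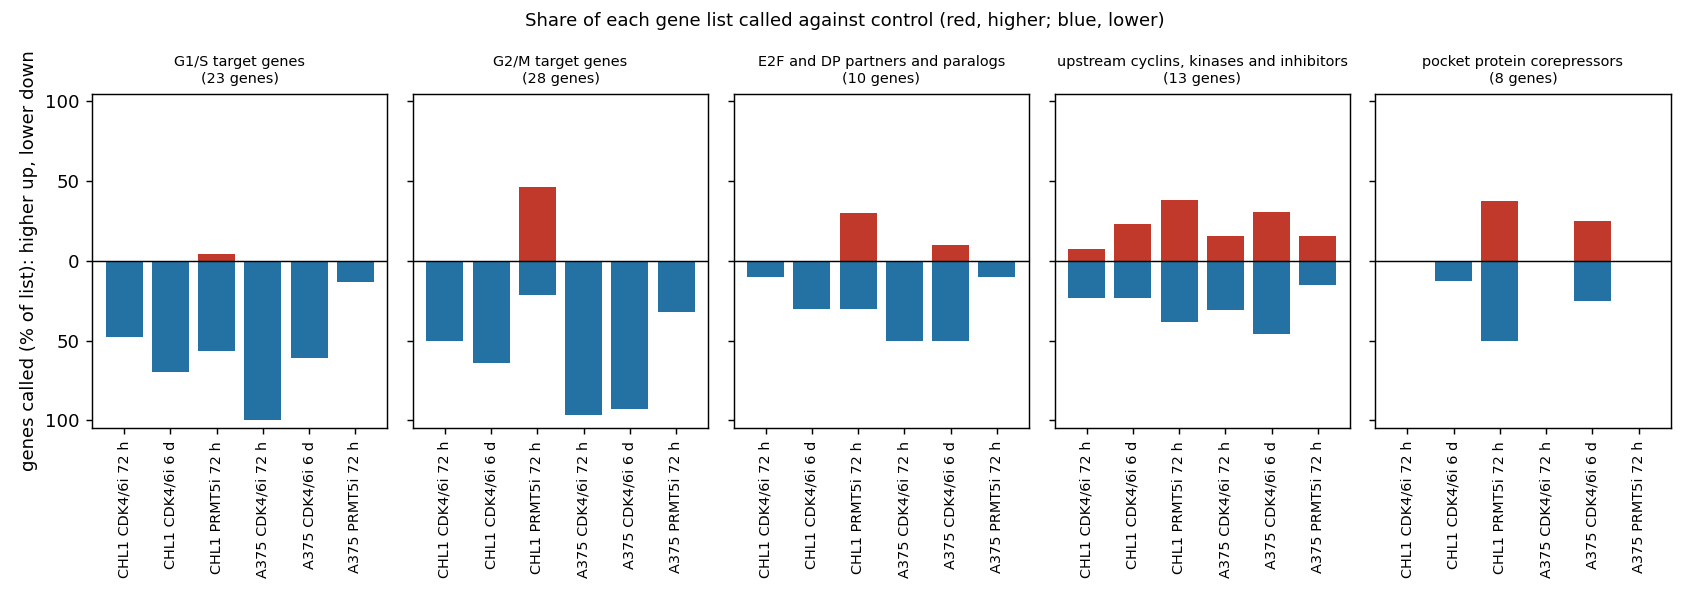
Share of the genes of 5 lists called higher (red, upward) or lower (blue, downward) against control (y axis, % of measured genes) in the 6 comparisons (x axis). The G1/S bar reaches 23 of 23 genes lower in A375 at 72 hours of CDK4/6i, and the G2/M list has 13 genes higher and 6 lower in CHL1 PRMT5i.

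Across the 18 libraries, with values centred within each line, MYBL2 and FOXM1 varied together (Pearson r = 0.97), and so did LIN9 with LIN52 (0.96) and with LIN54 (0.93) and RB1 with LIN54 (0.95). RBL1 lay between these groups, with r = 0.92 to LIN52 and 0.57 to MYBL2, and RBL2 had its highest value with RBBP4 (0.47). These are descriptions over libraries that share groups and the GC trend, and RB1, LIN9, LIN52 and LIN54 have a GC content of 37.1% to 42.7%. The genes most like each pocket protein or factor over the same 18 libraries were ENAH (0.987), PGGT1B (0.981) and ELMOD2 (0.977) for RB1, MELK (0.992), ATAD2 (0.99) and EXO1 (0.988) for RBL1, HSDL1 (0.807), ZFP90 (0.768) and PCDHB13 (0.749) for RBL2, UHRF1 (0.988), HIST1H3F (0.979) and HIST1H1B (0.978) for MYBL2, and KIFC1 (0.992), GTSE1 (0.984) and HIST1H2BL (0.977) for FOXM1. The likest genes of RB1 and RBL1 had a GC content of 33.5% to 42.4%, and those of MYBL2 and FOXM1 of 53.8% to 58.8%.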

How the data were processed

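Poly-A RNA was sequenced in paired ends from 18 libraries. Per the submitters' processing notes, FastQC 0.11.6, HISAT2 2.0.4, Picard 2.17.3, SAMtools 1.18, HTSeq 0.11.2 and edgeR were used with GRCh37 (hg19). The authors counted reads per gene and removed genes of low expression with edgeR. The deposited values are whole-number counts per gene symbol with different totals per library, and although the table's name points to normalised values they were treated as raw counts.

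Libraries were grouped by line, treatment and time from their labels. The members, the gene lists and the tests were chosen with earlier results of these data known. edgeR 4.0.16 (R 4.3.3) fitted all libraries of a line together with TMM scaling, no filter and no block, and the quasi-likelihood F test gave p-values adjusted by Benjamini-Hochberg over 20705 genes, with a threshold of 0.05. Differences between lines came from a fit of all 18 libraries. "Called", "rose", "fell" and "passed" refer to this test, and fold changes use a prior count of 0.125. Standard errors are the absolute log2 fold change divided by the root of F. CPM use TMM-adjusted totals, per line, or over all 18 libraries where divided by the length of the canonical transcript. GC content and coordinates came from GENCODE release 44 lifted to GRCh37. Among 15658 genes whose mean reached 1 CPM, 13655 (87.2%) could be given a GC content. The GC correction entered a loess curve (span 0.4) of each library's log2 deviation on GC content as an offset. Likeness used log2(CPM + 1). The edgeR and DESeq2 fits and the GC correction were tested on simulated data. The form of the GC offset was revised after that test and after a first form had been run on these data.

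All 9 member genes with a row, and genes of the lists on E2F partners, upstream regulators and corepressors, could be named, but of target genes only the largest called rise and fall in each comparison. Markers of other cell types (PTPRC, EPCAM, KRT5, KRT14, COL1A1 and COL3A1 had a row) had group means of at most 26.5 CPM.

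Alternatives were median-of-ratios scaling, a filter of 1 CPM in 2 libraries, DESeq2 1.42.0, the GC correction, other sets of libraries, a replicate block, and leaving out each library. Fits of genes with GC content without correction and without the CHL1 PRMT5i group, and the counts of the gene lists with the GC correction or the 72-hour control, were chosen after seeing the data. Replicates of a group differed by more than sampling noise (chi-square per degree of freedom of 7.6 to 118). PCR copies cannot be told from molecules, so counting precision covers counting error only.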

Additional observations from a re-analysis of the deposited data

Results flagged for a closer look

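The results below are differences between the cell lines in the effect of the same treatment, each with an adjusted p under 0.05 in edgeR's test of the difference itself (CHL1 minus A375, log2 scale). No group has more than 2 libraries, so single libraries were not tested as outliers.

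For CDK4/6i at 6 days, RB1 differed by 2.09 (adjusted p = 0.000527), LIN54 by 1.53 (adjusted p = 0.000523) and LIN9 by 0.96 (adjusted p = 0.0104). The CHL1 control is of 72 hours and the A375 control of 6 days, so line and control time cannot be told apart here. The A375 side rests on the 6-day control libraries with a GC trend, and RB1 in A375 was at -1.62 against that control and at -0.01 against the 72-hour control. Against the 72-hour control RB1, LIN54 and LIN9 were not called in A375. With the GC correction the differences were 1.10, 0.90 and 0.60 and still passed.

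For PRMT5i at 72 hours, LIN9 differed by 2.07 (adjusted p = 7.51e-05), RB1 by 1.78 (adjusted p = 0.000713), LIN54 by 1.70 (adjusted p = 0.000192), LIN52 by 1.40 (adjusted p = 0.000332) and RBL1 by 1.36 (adjusted p = 0.000351). The CHL1 side rests on the PRMT5i libraries with a GC trend of -2.3 and -1.88. With the GC correction, 8 of the 9 genes differed, 7 of them above 0, and LIN9 had the largest difference of the 9 at 1.36.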

How the results depend on the processing

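Of 1134 values of the 9 genes under the alternatives, 1006 kept their direction and side of the threshold, 68 lost it, 50 gained it and 10 reversed. A further 46 that were called under neither setting changed sign and are counted among the 1006. Counts of genes called that moved by over 1.5 times were as follows. Under A375 PRMT5i, 2 genes became 1 with median-of-ratios scaling, 4 with DESeq2, 6 with the GC correction, and 7 with only the compared groups or the 6 libraries of 72 hours. Under CHL1 PRMT5i, 7 became 3 with the GC correction. For the A375 difference of the 6-day and 72-hour effects, 0 became 1 with DESeq2. For PRMT5i against CDK4/6i in A375, 2 became 5, for the line difference at 72 hours of CDK4/6i 0 became 2, and for that of PRMT5i 5 became 8, all with the GC correction. With the 72-hour control, the 7 genes of A375 CDK4/6i at 6 days became 4. Calls that changed without 1 library are given with each comparison above. In CHL1 PRMT5i, leaving out 1 library gave log2 fold changes of 1.20 to 1.45 for RB1 and -1.69 to -1.08 for MYBL2. In A375 CDK4/6i at 6 days it gave -2.01 to -1.10 for RB1 and -1.43 to -0.50 for MYBL2. The spread is then estimated from fewer libraries, and a lone library is assumed to vary like the other groups.

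The values that reversed did so with the GC correction. In CHL1 PRMT5i against control RBL1 became -0.22 and RBBP4 -0.59, against CDK4/6i RBBP4 became -0.65 and MYBL2 1.12, in the A375 controls RBL1 became -0.58, and in the line difference for PRMT5i RBBP4 became -0.65, MYBL2 0.72 and FOXM1 0.84. The cause was not tested.

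The labels share replicate numbers 1 and 2 between groups, except for the A375 libraries of 6 days, without saying that a number marks a shared culture or batch. Deviations of same-numbered libraries correlated at -0.34 to 0.45 in CHL1, while the A375 values at 72 hours were all positive (0.22 to 0.48). Groups of 2 libraries do not settle whether the numbers pair them, so blocked values stand beside the A375 results of 72 hours. With the replicate block, 3, 4 and 7 genes were called in CHL1 (CDK4/6i at 72 hours, at 6 days and PRMT5i), against 796, 3167 and 11151 of all 20705 genes. In A375, 8 genes were called under CDK4/6i at 72 hours and 7 under PRMT5i, against 8752 and 6113 of all genes. With the replicate block and the GC correction together 3 genes were called in CHL1 PRMT5i, with RBL1 at -0.23 and RBBP4 at -0.60, and 7 in A375 PRMT5i. The number of calls over all genes moved as follows, where the GC fits cover 13655 genes. In CHL1 CDK4/6i at 72 hours, 1032 became 1671 (DESeq2), 2098 (without the CHL1 PRMT5i group), 2189 (GC), 2427 (block and GC) and 4202 (compared groups). In CHL1 PRMT5i, 11176 became 4753 (GC) and 4949 (block and GC), and against CDK4/6i 11958 became 6520 (GC). Without the correction, 9516 and 9930 of the same 13655 genes were called. In A375 CDK4/6i at 72 hours, 2761 became 6424 (6 libraries), 6940 (compared groups), 7284 (block and GC) and 8752 (block), and at 6 days 8928 became 5798 (GC) and 5862 (compared groups). In A375 PRMT5i, 541 became 911 (DESeq2), 1411 (GC), 1861 (compared groups), 3265 (6 libraries), 5297 (block and GC) and 6113 (block), and against CDK4/6i 1129 became 2497 (GC). DESeq2 raised 3 to 63 for the CHL1 times, 224 to 1146 for the A375 effects (341 with median-of-ratios scaling) and 133 to 368 for the line difference at 72 hours (519 with GC). GC correction lowered 9893 to 5807 for the A375 controls and 8466 to 3541 for the line difference of PRMT5i. Here 8207 and 7973 of the same 13655 genes were called without the correction, and 7202 in A375 CDK4/6i at 6 days. GC correction also moved the share of higher calls, from 490 of 1129 to 1345 of 2497 for PRMT5i against CDK4/6i in A375, from 4962 of 9893 to 2259 of 5807 for the A375 controls and from 50 of 133 to 282 of 519 for the line difference at 72 hours, and the block moved it from 181 of 541 to 2925 of 6113 in A375 PRMT5i. Without 1 library the calls fell to between 631 and 2583 of 3443 in CHL1 at 6 days and to between 827 and 1042 in A375 at 72 hours. The tests used 2 libraries in a group, which limits the precision of every fold change.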
